A study of Mus musculus with 7 samples.

Results

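The cytosolic ribosomal protein genes were taken as every measured gene whose symbol is Rpsa, Rplp0, Rplp1 or Rplp2 or follows the Rpl and Rps naming pattern, with the Rps6k kinases and rows named as pseudogenes (-ps) left out. This gave 88 of the 32212 genes measured, 53 of the large subunit and 35 of the small subunit. GENCODE M21, a mouse gene annotation, lists 83 of them as protein coding and 5 (Rpl6l, Rpl32l, Rps3a2, Rps3a3 and Rps4l) as pseudogenes in spite of their names. Both kinds were kept.

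Messenger RNA was sequenced from whole subcutaneous tumours of Lewis lung carcinoma (LLC), a transplantable mouse lung cancer line, grown in C57BL/6J mice of wild-type genotype that were 6 weeks old at injection into the right axilla. The 3 ZQD libraries came from tumour-bearing mice given Ze-qi decoction, a herbal preparation, at a high dose of 42.67 g/kg. The 4 control libraries came from the untreated model group, which carried the same tumour. Mice were allotted to groups 3 days after injection, 8 to a group, and tumours were taken on day 21 or day 22, since the design text and the protocol differ. The series concerns neutrophil extracellular traps in lung cancer. Nothing in the labels says that the numbered samples of a group are separate mice. The p-values therefore rest on the spread among these samples, which may be technical.

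The ribosome makes all cellular protein, and each of its subunits is built from ribosomal RNA and a fixed set of ribosomal proteins. Most cytosolic ribosomal proteins are needed in equal number, and their transcripts are among the most abundant of a growing cell. Many of these messengers start with a C followed by a run of pyrimidines, the terminal oligopyrimidine (TOP) tract, through which the mTOR pathway controls their translation. The mouse genome also carries a large number of processed copies of these genes, most of which are not thought to make protein.

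The 50 bases around the start of transcription, 30 before it and 20 from it on, are given for 11 members. They show the pyrimidine run, which was more common in members than in all genes and which the choice of members did not use. The windows are from RefSeq on build GRCm38.p6, read 5′ to 3′ on the gene's own strand. Capitals mark the longest run of C and T that touches the 10 bases on either side of the start. In Rpl13, Rps15, Rps27l, Rpl4 and Rps3a1 the capitals end before the start, outside the transcript as annotated. The first 6 are members whose ZQD libraries all lay under the lowest control, Rps27l is one of the 2 whose ZQD libraries lay above the highest, and the last 4 had log2 fold changes nearer 0.
Rpl15 (chr14:18270967-18271016, minus strand): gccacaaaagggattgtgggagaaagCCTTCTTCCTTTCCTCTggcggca
Rpl13 (chr8:123102320-123102369, plus strand): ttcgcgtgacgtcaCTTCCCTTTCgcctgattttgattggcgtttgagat
Rpl18 (chr7:45718041-45718090, plus strand): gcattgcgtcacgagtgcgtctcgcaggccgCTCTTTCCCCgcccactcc
Rps18 (chr17:33955646-33955695, minus strand): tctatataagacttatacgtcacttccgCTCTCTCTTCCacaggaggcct
Rps15 (chr10:80292401-80292450, plus strand): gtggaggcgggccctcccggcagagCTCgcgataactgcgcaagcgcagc
Rpsa (chr9:120127736-120127785, plus strand): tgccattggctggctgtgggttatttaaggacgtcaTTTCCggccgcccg
Rps27l (chr9:66946056-66946105, plus strand): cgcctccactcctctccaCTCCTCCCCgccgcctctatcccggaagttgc
Rpl4 (chr9:64173357-64173406, plus strand): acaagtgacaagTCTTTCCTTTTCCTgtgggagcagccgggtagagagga
Rps6 (chr4:86857348-86857397, minus strand): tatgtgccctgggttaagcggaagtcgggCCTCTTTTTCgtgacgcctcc
Rplp2 (chr7:141447621-141447670, plus strand): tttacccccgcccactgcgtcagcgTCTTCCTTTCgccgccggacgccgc
Rps3a1 (chr3:86142649-86142698, minus strand): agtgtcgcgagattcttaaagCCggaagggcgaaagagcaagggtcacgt
The table held a promoter for 64 members. Rps14, Rplp1, Rpl21 and 21 others had no entry. A run of 8 or more C or T within 10 bases of the start stood in 28 of the 64 (43.75%), against 13.5% of all 27025 promoters in the table. The share was 42.5% for the large subunit and 45.8% for the small subunit. The longest run had a median of 6.5 bases in members and 4 bases in all genes. Over the whole window of 300 bases, CTTCC or its reverse complement GGAAG stood in 92.2% of members and 71.1% of all promoters. CTTCC can lie inside a pyrimidine run. GGGCGG or CCGCCC stood in 59.4% of members against 35.9%, GCCAT or ATGGC in 54.7% against 40.9%, and TATAAA or TTTATA in 10.9% against 14.2%. These are counts of letters in a window and not of bound sites.

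The deposited values are FPKM, reads divided by the gene's length and by the total counted in that library, so levels of different genes are given per length. Rebuilt totals were 34765330 to 38673663 reads in ZQD libraries and 32065288 to 49914394 in controls. Values with ± are means with the SD over the 3 ZQD or the 4 control libraries. The labels call the cell type a tumour cell, but the tissue was a bulk tumour. In it the keratin gene Krt8 reached at most 0.164 FPKM. The 6 epithelial genes counted, Krt8 among them, summed to 7.25 to 21.1 FPKM in ZQD and 9.10 to 33.3 FPKM in controls. The macrophage lysozyme gene Lyz2 lay between 362 and 538 FPKM in ZQD and between 115 and 326 FPKM in controls. In bulk tissue, fewer cells of a type and less RNA per cell cannot be told apart.

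The question is whether ribosomal protein transcripts differed between ZQD and control tumours. The family's values lay slightly lower in ZQD tumours, with no member past the threshold. The median log2 fold change over the 86 members tested was -0.11, where the median of all 14838 genes tested was -0.04. Of the 86, 65 had a log2 fold change below 0 (58.2% of all genes did) and 21 above 0 (41.8%). Of the 86 members, 0 passed the test across all genes (limma, Benjamini-Hochberg adjusted p under 0.05), as did 0.0% of all genes. At an unadjusted p under 0.05, 19 members were lower (10.3% of all genes were) and 2 were higher (5.21% of all genes were) in ZQD. The count of 19 rested on single libraries and on the scaling: it was 9 without ZQD 1 (8.38% of all genes), 11 without ZQD 2 (7.42%), 12 without control 2 (10%), 10 without control 4 (7.9%), 11 with TMM factors (7.37%) and 32 on the TPM scale (19.2%). The smallest adjusted p of a member was 0.131. DESeq2 on reads rebuilt from the FPKM called 517 genes (4.13%) and 5 members. Rps14, Rpl13, Rplp1 and Rps15 were its 4 lower members (1.83% of all genes) and Rpl21 its 1 higher member (2.3%). Quasi-likelihood tests in edgeR on the same reads called 0 genes and 0 members (0.0%). At an unadjusted p under 0.05, edgeR had 12 members lower (7.33% of all genes) and 2 higher (7.65%).

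**Figure D1:**
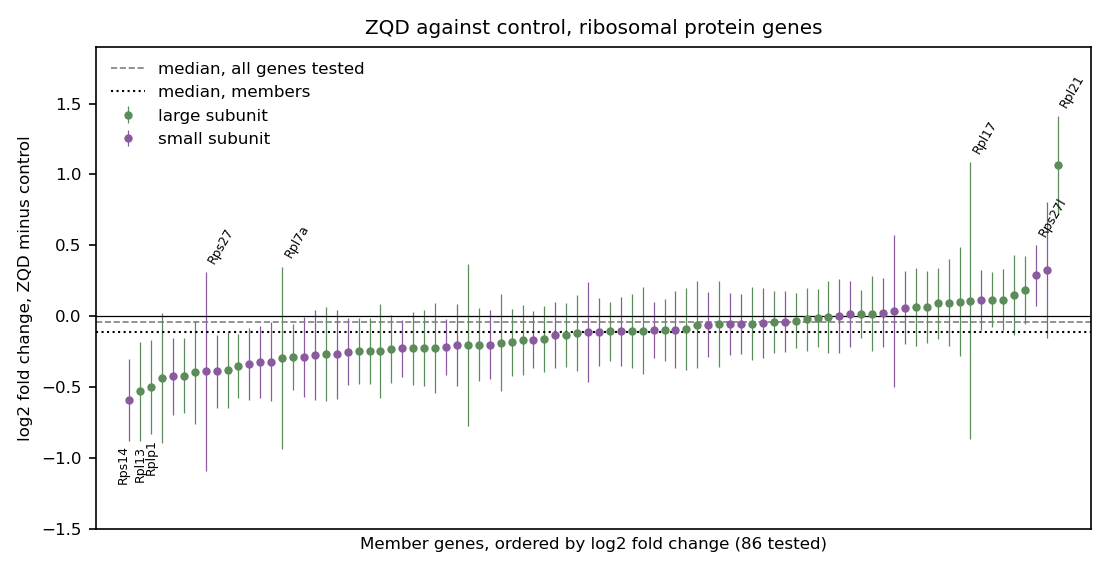
Log2 fold change of each tested member, the ZQD mean minus the control mean of log2(FPKM + 0.5), ordered from lowest to highest, where points are the limma estimates and bars their 95% intervals, green for the large and purple for the small subunit. Most points lie a little below the dashed line at the median of all genes (-0.04), Rpl21 stands alone at 1.06, and Rpl17 has an interval far wider than its neighbours.

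Library by library, 19 members had every ZQD value under the lowest control, a pattern of 9.84% of all genes tested. The 19 included Rps14, Rpl13, Rplp1, Rps15, Rpl18, Rps18, Rpl27, Rpl15, Rps9, Rpsa, Rps16, Rpl3, Rpl10, Rpl8, Rps3 and Rps21. Among these the log2 fold changes ran from -0.59 for Rps14 to -0.22 for Rps21. The count depended on single libraries: it was 38 without ZQD 3, where 17.2% of all genes showed the pattern, and 29 without control 3 (13.6% of all genes). Another 2 members, Rpl21 and Rps27l, had every ZQD value over the highest control (5.35% of all genes). Control 4 held the highest value of 43 members and control 2 of 20, while ZQD 3 held that of 14. The lowest value fell in ZQD 1 for 37 members, in ZQD 2 for 18, in control 1 for 15 and in ZQD 3 for 8.

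**Figure D2:**
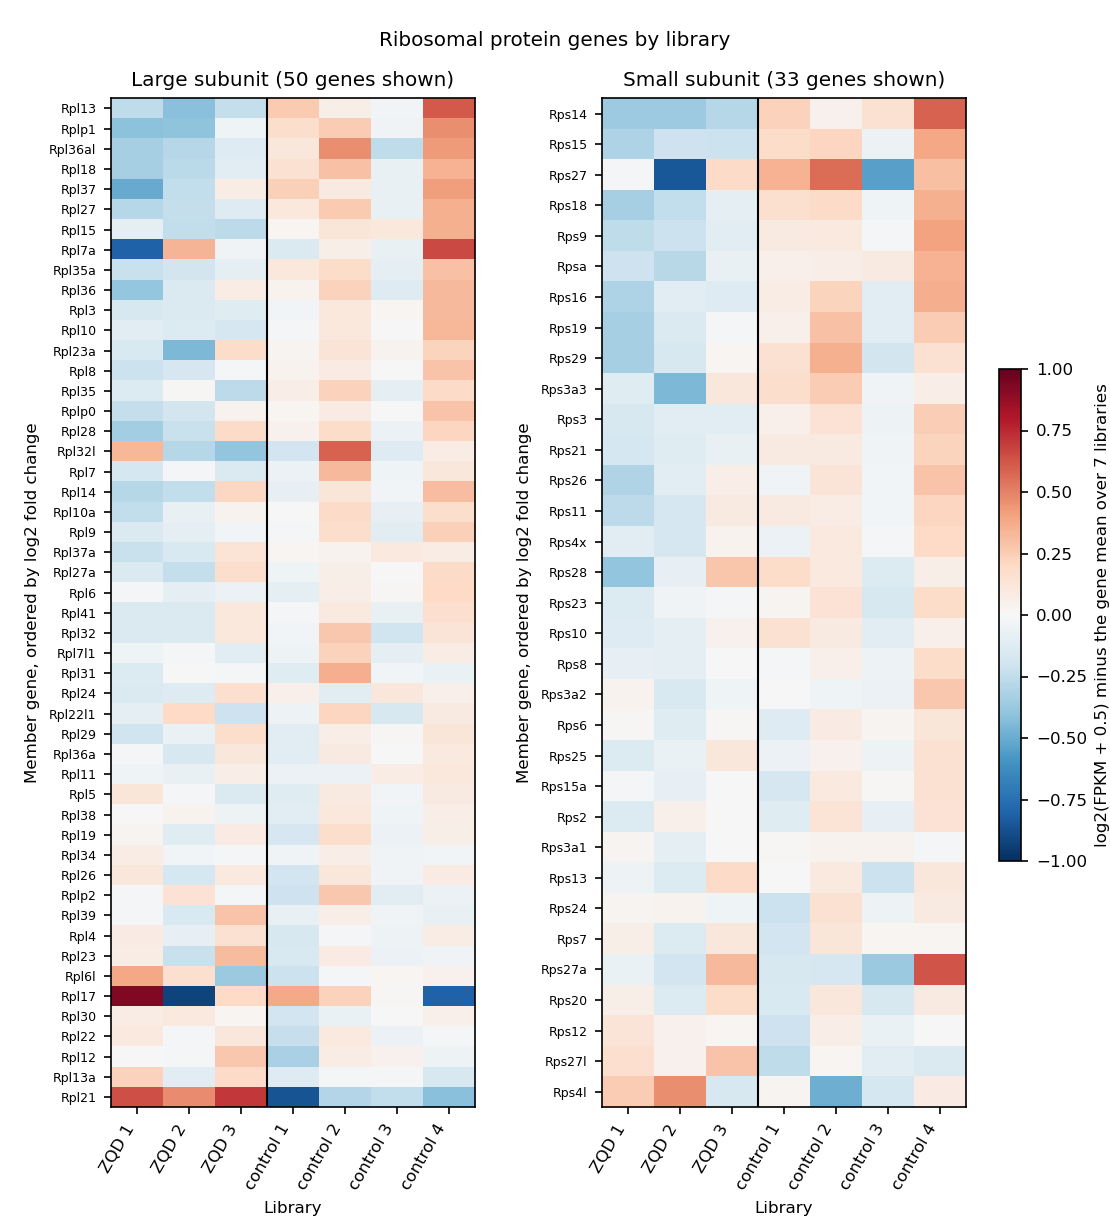
Tested members (rows, 50 of the large subunit and 33 of the small subunit shown, large subunit left and small subunit right, ordered by log2 fold change) in each library (columns), coloured by log2(FPKM + 0.5) minus the member's mean over the 7 libraries, with colour ending at -1 and 1. Blue is most common in ZQD 1, the lowest library of 37 members, and red in control 4, the highest of 43, and the Rpl21 row runs the other way.

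Rps14, a protein of the small subunit platform (ENSMUSG00000024608), had the most negative log2 fold change of the family. It was at 53.2, 53.3 and 56.4 FPKM in the 3 ZQD libraries and at 80.6, 70.9, 76.5 and 104 FPKM in the 4 controls. The ZQD libraries lay close together and below every control. The means were 54.3 ± 1.83 FPKM in ZQD (SD, n = 3) and 82.9 ± 14.4 in controls (SD, n = 4), or -0.59 on the log2 scale (SE 0.127, limma adjusted p = 0.154). DESeq2 called it (adjusted p = 0.00581) and edgeR did not (adjusted p = 0.139), and with 1 library left out its log2 fold change ranged from -0.66 to -0.48.

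Rps15 belongs to the head of the small subunit, close to the decoding site. It was at 454, 485 and 483 FPKM in ZQD and at 638, 652, 538 and 731 FPKM in controls (log2 fold change -0.42 with an SE of 0.118, adjusted p = 0.189 in limma and 0.0436 in DESeq2). The control range was the wider, and its lowest library, control 3, lay above all ZQD libraries. Rps18, which touches the large subunit in a bridge at the head, was at 135, 144 and 159 FPKM in ZQD and at 189.8, 195, 165 and 218 FPKM in controls, a log2 fold change of -0.39 (SE 0.112). For Rps18 the gap was narrow, since ZQD 3 (159 FPKM) and control 3 (165 FPKM) were neighbours, and its exons overlap those of Vps52. Rpsa, the laminin receptor protein at the mRNA exit of the small subunit, was at 500.2, 477 and 549 FPKM in ZQD and at 599, 605, 614 and 736 FPKM in controls (log2 fold change -0.32, SE 0.111). Control 4 stood above its 3 fellows there.

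Grouped by place in the small subunit, the 14 head proteins had a median log2 fold change of -0.20, with 11 of 14 below 0 and 6 lower at an unadjusted limma p under 0.05 (10.3% of all genes). The 5 proteins of the platform and the mRNA exit (Rps14, Rps26, Rps3a1, Rpsa and Rps21) had a median of -0.22, all below 0, with 3 lower at that p (10.3% of all genes). Rps3, a head protein at the mRNA entry that is also known in DNA repair, was at 72.1, 74.6 and 74.7 FPKM in ZQD and at 83.8, 89.2, 78.0 and 96.0 FPKM in controls (log2 fold change -0.23). Rps9, which binds the body of the subunit and helps keep decoding accurate, was at 101 ± 5.14 FPKM in ZQD and 128 ± 16.9 in controls (log2 fold change -0.34). Not every small subunit gene lay lower. Rps3a1, the most abundant member, was at 1062, 979 and 1037 FPKM in ZQD and at 1051, 1066, 1065 and 1028 FPKM in controls, so the groups overlapped. Rps6, the classic substrate of S6 kinase, was at 496 ± 25.9 FPKM in ZQD and 517 ± 39.0 in controls, with a 95% interval of -0.29 to 0.17 around a log2 fold change of -0.06. Rps12 was at 201 ± 7.99 FPKM in ZQD and 186 ± 15.1 in controls (log2 fold change 0.12).

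On the large subunit, Rpl13 (ENSMUSG00000000740) was at 259.7, 232 and 263 FPKM in ZQD and at 372, 323, 305 and 475 FPKM in controls. The ZQD libraries all lay under the lowest control, and control 4 stood highest. Its log2 fold change was -0.53 (SE 0.154), with a limma adjusted p of 0.193 and a DESeq2 adjusted p of 0.0362. Rpl18 was at 36.4, 38.1 and 42.5 FPKM in ZQD and at 51.2, 56.6, 43.8 and 58.6 FPKM in controls (log2 fold change -0.42), and ZQD 3 and control 3 were again the nearest pair. Its exons overlap those of Sphk2, so reads there may belong to either gene. Rpl27 was at 183, 189 and 204 FPKM in ZQD and at 240.0, 267, 212 and 286 FPKM in controls (log2 fold change -0.38). Rpl15, another large subunit protein, whose exons overlap those of Nkiras1, was at 89.2, 80.3 and 79.5 FPKM in ZQD and at 96.6, 104, 103 and 122 FPKM in controls (log2 fold change -0.35). In Rpl15 the ZQD library highest in the group was ZQD 1, unlike in Rpl18, Rps18 and Rpl27, where it was ZQD 3.

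The stalk of the large subunit, which recruits and activates the elongation factors, is built from Rplp0 with pairs of Rplp1 and Rplp2 on a base that Rpl12 shares. These 4 partners did not lie together. Rplp1 was at 345, 347 and 444 FPKM in ZQD and at 519.5, 548, 447 and 633 FPKM in controls. The ZQD values all lay lower, although ZQD 3 (444 FPKM) came close to control 3 (447 FPKM). On the log2 scale the difference was -0.50 (SE 0.146), with a limma adjusted p of 0.193 and a DESeq2 adjusted p of 0.0492. Rplp2 was at 102, 114 and 102 FPKM in ZQD and at 89.2, 124, 95.4 and 99.0 FPKM in controls (log2 fold change 0.06), and the groups overlapped throughout. Rplp0 was at 785 ± 80.8 FPKM in ZQD and 918 ± 84.9 in controls (log2 fold change -0.23), and Rpl12 at 193 ± 22.3 FPKM in ZQD and 174 ± 20.8 in controls (log2 fold change 0.15). No test of the difference between partners was made.

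Rpl5 and Rpl11 bind the 5S ribosomal RNA, and outside the ribosome this particle restrains Mdm2, the ligase that degrades p53. Rpl5 was at 189.6 ± 17.5 FPKM in ZQD and 192 ± 13.3 in controls, and Rpl11 at 155 ± 7.89 FPKM in ZQD and 158 ± 9.61 in controls. Their log2 fold changes were -0.02 (95% interval -0.25 to 0.20) and -0.03 (95% interval -0.23 to 0.16). Around the exit of the peptide tunnel, the 7 proteins Rpl17, Rpl19, Rpl23a, Rpl26, Rpl31, Rpl35 and Rpl39 had a median of -0.01, and 0 of 7 had an unadjusted limma p under 0.05 in either direction. Rpl4, which lines the tunnel and is the second most abundant member, was at 968, 863 and 1018 FPKM in ZQD and at 817, 902, 884 and 962 FPKM in controls. It had a log2 fold change of 0.09, which was -0.01 when each library's FPKM were scaled to the same sum.

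**Figure D3:**
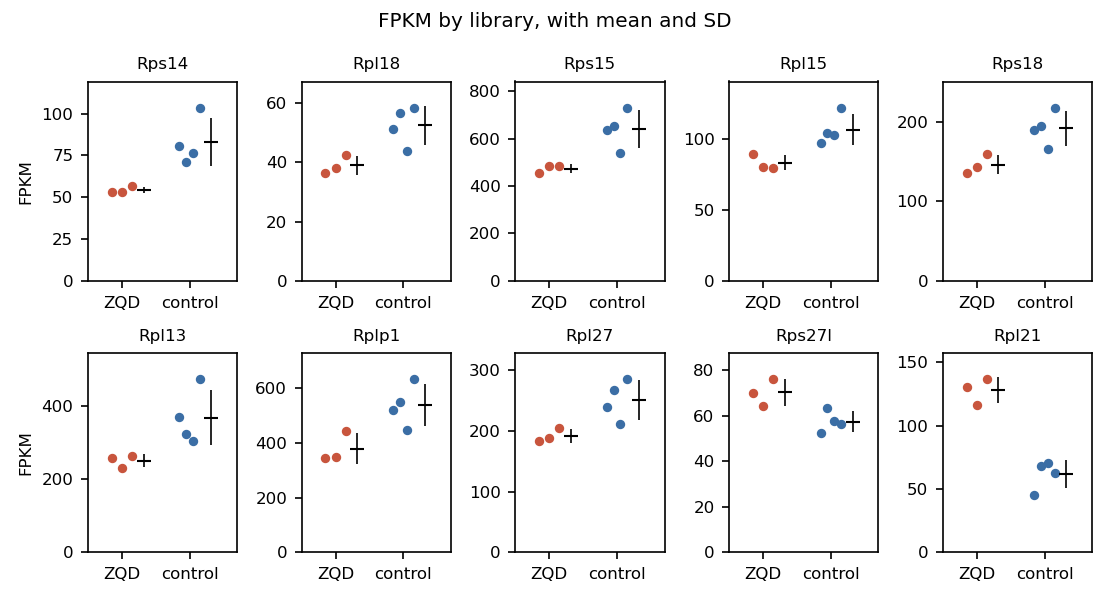
FPKM of 10 members in each library, ZQD (red) left of control (blue), with the mean and SD of each group as a black bar beside the points, where each panel has its own axis from 0. The first 8 are the members with smallest p among those lower in ZQD, in which no ZQD point reaches the lowest control, and Rps27l and Rpl21 are the 2 members with all ZQD points above all control points.

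The subunits had near-equal medians, and the difference was not tested. The median log2 fold change was -0.11 for the 51 large subunit members tested and -0.11 for the 35 of the small subunit, with 38 and 27 below 0. At an unadjusted limma p under 0.05, 9 large and 10 small subunit members were lower (10.3% of all genes), and 1 of each was higher (5.21%). Within each library, the mean log2 level of large subunit genes exceeded that of small subunit genes by 0.38 ± 0.02 in ZQD (SD, n = 3) and by 0.34 ± 0.05 in controls (SD, n = 4). The ratio of large to small subunit reads was 1.67, 1.60 and 1.69 in ZQD, against 1.59, 1.61, 1.60 and 1.58 in controls. ZQD 1 and ZQD 3 exceeded every control and ZQD 2 lay among them. No p is given for sums over the family.

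Summed over all members, ribosomal protein genes took 3.02%, 2.93% and 3.27% of the counted reads in ZQD, against 3.13%, 3.45%, 3.14% and 3.64% in controls. The groups overlapped, with means of 3.07% ± 0.177 in ZQD (SD, n = 3) and 3.34% ± 0.252 in controls (SD, n = 4). The share of mitochondrially encoded genes was higher in every ZQD library than in any control. It was 11.1%, 10.7% and 8.78% in ZQD and 6.47%, 7.26%, 7.96% and 5.18% in controls. With mitochondrial reads left out of the total, the ribosomal protein share was 3.42% ± 0.155 in ZQD (SD, n = 3) and 3.58% ± 0.240 in controls (SD, n = 4). On that scale the members' median log2 fold change was -0.06, where that of all genes was 0.00, and 12 members in place of 19 were lower at an unadjusted limma p under 0.05 (7.05% of all genes). The members' median minus that of all genes was -0.07 on the deposited scale, -0.06 with TMM or median-of-ratios factors, -0.06 without mitochondrial reads and -0.08 when every library's FPKM were scaled to one sum. That difference was -0.03 with array weights, -0.04 without ZQD 1, -0.12 without ZQD 3, -0.11 without control 1, -0.12 without control 3 and -0.11 without a filter on low values.

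**Figure D4:**
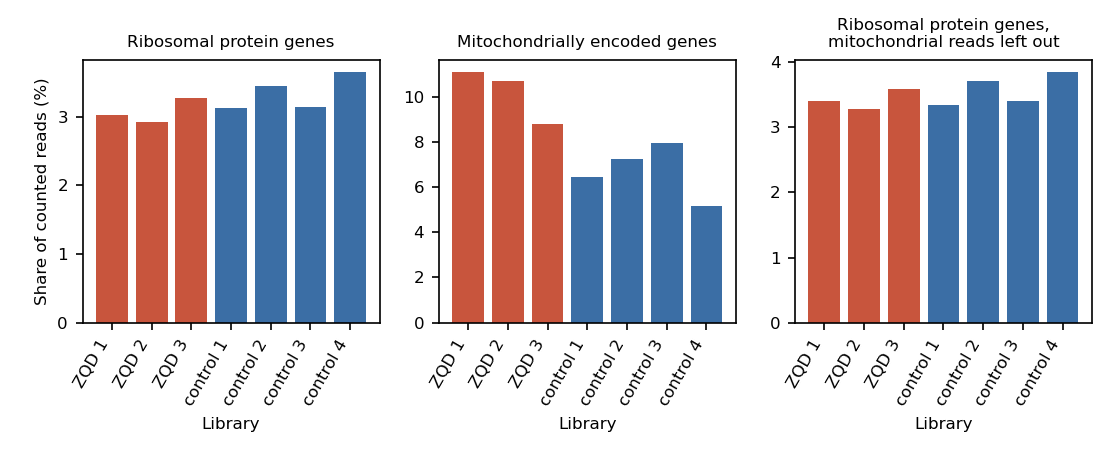
Share of counted reads (percent) in each library, ZQD in red and control in blue, for ribosomal protein genes (left), mitochondrially encoded genes (middle) and ribosomal protein genes after mitochondrial reads were left out of the total (right). The ribosomal protein share overlaps between groups in both panels, from 2.93% to 3.27% in ZQD and 3.13% to 3.64% in controls before mitochondrial reads were left out, while every ZQD library exceeds every control in the mitochondrial share.

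Rpl21 (ENSMUSG00000041453), a protein of the large subunit, differed most in the family and in the opposite direction. It was at 131, 116 and 137 FPKM in ZQD and at 45.7, 68.2, 70.5 and 62.5 FPKM in controls. Every ZQD library stood well above every control. The means were 128 ± 10.5 FPKM in ZQD (SD, n = 3) and 61.7 ± 11.2 in controls (SD, n = 4), a log2 fold change of 1.06 (95% interval 0.72 to 1.41, SE 0.152). The limma adjusted p was 0.131, the edgeR adjusted p 0.0801 and the DESeq2 adjusted p 1.22e-08. With any 1 library left out the log2 fold change ranged from 0.93 to 1.13. Rpl21 had been singled out with its value known.

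The Rpl21 value is uncertain because expressed copies nearly repeat its sequence. A stretch of 90 bases of the coding sequence (bases 289 to 378) is shown with the same stretch of Rpl21-ps15, a pseudogene on chromosome X, the Rpl21 gene itself being on chromosome 5. Capitals mark the 2 bases that differ, and a read of the shared sequence that covers no differing base fits both equally. The sequences are GENCODE M21 transcripts.
Rpl21: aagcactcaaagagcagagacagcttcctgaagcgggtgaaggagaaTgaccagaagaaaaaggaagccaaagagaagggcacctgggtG
Rpl21-ps15: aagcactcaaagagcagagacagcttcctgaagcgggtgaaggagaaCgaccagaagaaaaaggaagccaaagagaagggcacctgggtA
Over its 483 bases Rpl21-ps15 had 3 mismatches to the Rpl21 transcript (99.4% identity). It was at 336, 313 and 416 FPKM in ZQD and at 96.6, 148, 236 and 298 FPKM in controls. Its ZQD libraries too lay above all controls, and its controls were spread widely, with control 1 lowest in both rows. Rpl21-ps8, with 98.6% identity, was at 10.4, 10.8 and 9.71 FPKM in ZQD and at 4.94, 6.07, 5.29 and 4.57 FPKM in controls, again without overlap. Rpl21-ps10, with 98.5% identity, was at 5.48, 3.99 and 4.07 FPKM in ZQD and at 3.92, 5.15, 4.61 and 2.75 FPKM in controls and overlapped. The Rpl21 row has a length of 3400 bases, so at its lower FPKM it still held 69.7% of the reads of the family of copies. Summed with the 11 pseudogene rows that had a length, Rpl21 had a log2 fold change of 1.02, beside 1.06 alone. Which locus the reads came from was not tested.

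Copies of this kind ran through the family. Among the measured genes, 200 rows were named as pseudogenes of 53 members, and 36 members had at least 1 such row above 1 FPKM. Of 197 that aligned to their member, the 72 at 1 FPKM or more in either group had a median identity of 99.4%, and the 125 below that level 96.6%. Among the 72, 3 had every ZQD library above the controls (Rpl21-ps15, Rpl21-ps8 and Rpl7a-ps5) and 6 had every ZQD library below them (Rpl7a-ps11, Rps10-ps2, Rps19-ps3, Rps19-ps6, Rps2-ps6 and Rps2-ps10). Of all genes tested, 5.35% had every ZQD library above and 9.84% had every ZQD library below. Members with an expressed copy had a median log2 fold change of -0.13 (36 genes), and the others -0.11 (50 genes). Rows named as copies took 0.108% ± 0.0146 of reads in ZQD (SD, n = 3) and 0.106% ± 0.0169 in controls (SD, n = 4).

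For Rps10, a head protein near the mRNA entry, the copy held nearly all the signal. The member row was at 2.69, 2.76 and 3.10 FPKM in ZQD and at 3.38, 3.22, 2.73 and 3.12 FPKM in controls and carried 4.67% of the reads of the gene and its 3 copies. Rps10-ps2 was at 203, 245 and 249 FPKM in ZQD and at 300.0, 313, 285 and 382 FPKM in controls, every ZQD library lying under the lowest control. Bases 384 to 473 of the Rps10 coding sequence and the same stretch of the copy are shown because they hold all 5 of its mismatches (capitals). Rps10 lies on chromosome 17 and the copy on chromosome 16.
Rps10: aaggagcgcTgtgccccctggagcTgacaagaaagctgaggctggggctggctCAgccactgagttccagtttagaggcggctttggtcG
Rps10-ps2: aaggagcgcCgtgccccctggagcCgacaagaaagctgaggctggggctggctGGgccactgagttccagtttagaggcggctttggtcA
The log2 fold change was -0.11 for Rps10 alone and -0.43 for Rps10 summed with its copies (limma adjusted p = 0.185). Of the 52 members with measured copies, Rps10 was the only 1 whose own row held under 50% of the reads on average over the libraries. In single libraries Rpl17 also lay under 50%, at 38.1% in ZQD 2 and 36.2% in control 4. The exons of Rps10 also overlap a readthrough gene, RPS10-NUDT3 in the annotation.

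Rpl17, at the tunnel exit, was the least even member among libraries of 1 group. It was at 467, 129 and 282 FPKM in ZQD and at 320.1, 289, 248 and 141 FPKM in controls, a log2 fold change of 0.11 (SE 0.428). Rpl17-ps10 was at 169, 207 and 344 FPKM in ZQD and at 248, 212, 198 and 344 FPKM in controls, and Rpl17-ps3 at 89.1, 267 and 211 FPKM in ZQD and 48.6, 95.1, 240.1 and 212 FPKM in controls. Where Rpl17 was low (ZQD 2 and control 4), Rpl17-ps3 stood above 200 FPKM, and where Rpl17 was high (ZQD 1 and control 1) it stood below 100. The SD of the log2 level was 0.93 in ZQD and 0.53 in controls for Rpl17 alone. Summed with its 8 copies it was 0.42 in ZQD and 0.10 in controls. The median SD over members was 0.12 in ZQD and 0.14 in controls.

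**Figure D5:**
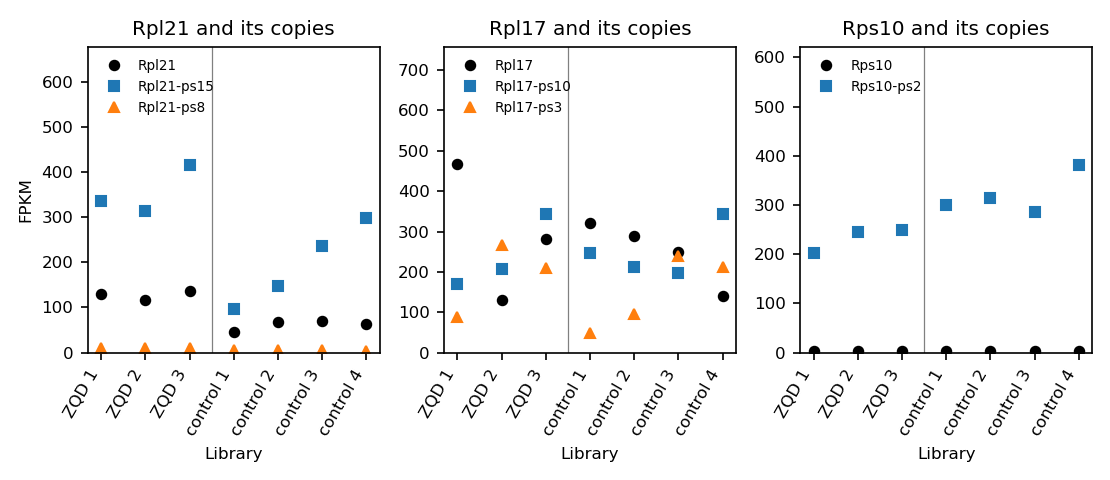
FPKM in each library, ZQD left of the vertical line and control right of it, for Rpl21, Rpl17 and Rps10 (black circles) and the pseudogene rows that nearly repeat them (squares and triangles). Rpl21-ps15 and Rpl21 are both higher in ZQD, Rpl17 and Rpl17-ps3 trade places between libraries of the same group, and almost all Rps10 signal lies on Rps10-ps2.

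Rps27l, a paralogue of Rps27 known as a target of p53, was the other member with all ZQD libraries above all controls. It was at 70.0, 64.4 and 76.0 FPKM in ZQD and at 52.4, 63.3, 57.6 and 56.2 FPKM in controls, and ZQD 2 (64.4 FPKM) was next to control 2 (63.3 FPKM). On the log2 scale Rps27l differed by 0.29 (SE 0.0946, limma adjusted p = 0.231). Rps27 itself was at 56.3, 31.4 and 64.9 FPKM in ZQD and at 72.4, 84.1, 39.0 and 70.2 FPKM in controls, with low libraries in both groups. The Rps27l level stood at 124%, 205% and 117% of that of Rps27 in ZQD and at 72.3%, 75.3%, 148% and 80.1% in controls. Control 3 lay within the ZQD range (two-sided exact permutation p = 0.171, adjusted over 5 paralogue pairs 0.286, smallest possible p 0.0286). In the other pairs, Rpl22l1 stood at 6.02% to 8.95% of Rpl22 in ZQD and 7.02% to 8.62% in controls, and Rpl7l1 at 8.87% to 9.68% of Rpl7 in ZQD and 8.28% to 8.88% in controls. Rpl36al stood at 0.493% to 0.582% of Rpl36a in ZQD and 0.539% to 1.11% in controls. Rps4l stood at 0.164% to 0.372% of Rps4x in ZQD and 0.0981% to 0.219% in controls. Reads were few, 26 to 69 per library for Rpl36al and 14 to 44 for Rps4l. Exons of Rpl36al overlap those of Gm49383, and exons of Rpl22l1 those of Gm33051. The groups overlapped in all 5 ratios, and none passed (adjusted exact permutation p from 0.286 to 0.4). The smallest possible p of 0.0286 is before adjustment. After adjustment over 5 pairs, no single ratio could have passed by itself, even with fully separate groups. No conclusion is therefore drawn from the adjusted values. Rpl3l, a paralogue of Rpl3 typical of muscle, and Rpl39l, one of Rpl39 typical of testis, stayed under 0.5 FPKM in every library and were not tested.

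The other higher members of smallest p had overlapping groups. Rpl13a, which also binds certain inflammatory messengers once released from the ribosome, was at 12.2, 9.50 and 11.9 FPKM in ZQD and at 9.37, 10.2, 10.2 and 9.15 FPKM in controls (log2 fold change 0.18, 95% interval -0.06 to 0.42). Rpl30 was at 156 ± 4.29 FPKM in ZQD and 144 ± 10.3 in controls, and Rpl22 at 62.9 ± 2.87 FPKM in ZQD and 58.0 ± 5.37 in controls, with log2 fold changes of 0.12 and 0.12. Among the members with most pseudogene rows, Rpl31 (14 rows) was at 190.0 ± 9.28 FPKM in ZQD and 204 ± 33.7 in controls, Rps19 (8 rows), which is mutated in human Diamond-Blackfan anaemia, at 13.3 ± 1.53 FPKM in ZQD and 16.4 ± 2.12 in controls, and Rps2 (8 rows) at 480.0 ± 31.4 FPKM in ZQD and 498 ± 48.0 in controls. Their log2 fold changes were -0.09, -0.29 and -0.05.

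Levels varied widely among members, in FPKM that divide by gene lengths of 383 to 6270 bases. The median member stood at 141 FPKM, 56 members averaged 100 FPKM or more and 9 under 10 FPKM. Those 9 were the annotated pseudogenes Rpl32l, Rps3a2 and Rps4l, the paralogues Rpl22l1, Rpl36al, Rpl39l and Rpl3l, and Rpl24 and Rps10. Exons of Rpl24 and Rps10 overlap other genes. The most abundant were Rps3a1, Rpl4, Rplp0, Rpl41 and Rpsa. Rpl41, which encodes the shortest of the proteins, was at 813 ± 81.9 FPKM in ZQD and 874 ± 65.7 in controls. At the low end, Rpl24 (ENSMUSG00000098274), whose exons overlap those of Gm28037, was at 1.30 ± 0.228 FPKM in ZQD and 1.37 ± 0.121 in controls. Exons of 39 members overlap another annotated gene, often a small nucleolar RNA. Those 39 had a median log2 fold change of -0.11, and the 47 tested without overlap -0.13.

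Members with and without the pyrimidine run also had close medians. The 28 with a run of 8 or more had a median log2 fold change of -0.10 with 5 lower at an unadjusted limma p under 0.05, and the 34 tested without it -0.11 with 10 lower, where 10.3% of all genes were lower at that p. Rpl15 and Rps15, printed near the opening with the longest run of that set and with a run of 3, had log2 fold changes of -0.35 and -0.42.

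Of the ribosome's remaining parts, Fau, the precursor of Rps30, was at 162, 164 and 179 FPKM in ZQD and at 184, 219, 192 and 229.5 FPKM in controls (log2 fold change -0.29). Rack1, a scaffold on the small subunit head, was at 127, 119.8 and 129 FPKM in ZQD and at 138, 154, 136 and 162 FPKM in controls (log2 fold change -0.23). Both had every ZQD library under the lowest control, a pattern of 9.84% of all genes tested. Neither passed in limma.

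Elsewhere in translation, the list of elongation factors and other TOP messengers had 14 of 19 genes below 0 and a median of -0.04, where all genes had -0.04. Eif3f, a subunit of the initiation factor eIF3, was at 21.5, 25.2 and 25.5 FPKM in ZQD and at 34.9, 32.3, 28.0 and 42.7 FPKM in controls (log2 fold change -0.50, adjusted p = 0.193 in limma). Eef2, the translocation factor, was at 827 ± 68.2 FPKM in ZQD and 976 ± 65.9 in controls (log2 fold change -0.24). Ribosome biogenesis genes had 22 of 30 below 0 and a median of -0.09, with 2 lower at an unadjusted limma p under 0.05 (10.3% of all genes), Rrp9 (log2 fold change -0.56) and Bop1 (-0.27), both of pre-ribosomal RNA processing. Among 77 mitochondrial ribosomal protein genes the median was -0.03, with 47 below 0, and among 53 translation initiation genes it was -0.04. Proteasome genes, another abundant housekeeping complex, had a median of -0.01 over 37 genes.

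In the list of Myc and mTOR genes, which drive ribosome production, 11 of 15 were below 0 with a median of -0.15. Myc, the transcription factor, was at 58.7, 88.1 and 84.1 FPKM in ZQD and at 97.3, 116, 103 and 118 FPKM in controls (log2 fold change -0.51, adjusted p = 0.195 in limma). Every ZQD library of Myc lay under the lowest control, as in 9.84% of all genes tested. Rps6kb1, the S6 kinase that phosphorylates Rps6, was at 15.1 ± 1.17 FPKM in ZQD and 12.9 ± 0.701 in controls (log2 fold change 0.21). The p53 and nucleolar stress list was split 5 and 5. Its Bbc3, which encodes the death factor PUMA, was at 3.68 ± 0.619 FPKM in ZQD and 5.40 ± 0.979 in controls, and Cdkn1a, the cell cycle inhibitor p21, at 38.6 ± 5.69 FPKM in ZQD and 33.1 ± 3.43 in controls. The log2 fold changes were -0.49 and 0.21. Proliferation genes had a median of 0.13 over 16 genes, with 0 past an unadjusted limma p of 0.05 in either direction.

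Marker genes of other cells of the tumour were counted in the same libraries, and no row was at 0 in all 7. Macrophage markers had 10 of 11 log2 fold changes above 0 and a summed level of 1200 to 1534 FPKM in ZQD against 834 to 1189 FPKM in controls. Neutrophil markers also had 10 of 11 above 0, with sums of 50.6 to 122 FPKM in ZQD and 34.0 to 74.7 FPKM in controls. T and NK cell markers had 8 of 9 above 0, with sums of 32.3 to 45.7 FPKM in ZQD and 25.3 to 40.6 FPKM in controls. Fibroblast markers had 6 of 8 above 0, with sums of 38.0 to 229 FPKM in ZQD and 30.8 to 139 FPKM in controls. Of 6 epithelial genes only 2 were high enough to test, and both had log2 fold changes below 0 (-0.25 and -0.22). The 6 had sums of 7.25 to 21.1 FPKM in ZQD and 9.10 to 33.3 FPKM in controls. The part of cell composition in the ribosomal protein values was not tested.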

How the data were processed

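The members and all lists were chosen with earlier results of these data known, so no test over a list is given. FPKM of 7 libraries were deposited by the authors, with raw counts of only 2 controls (1 and 2). HISAT2, featureCounts, Subread and DESeq2 are named in the submitters' processing notes, with versions, genome build, annotation and strand setting not given in the sources used here. Per the labels' protocols, poly(A) RNA gave paired-end libraries. FPKM and counts of the same 2 libraries gave lengths for 27421 of 32212 genes (98.2% of 27021 compared equal the GENCODE M21 exon length), and with them reads were rebuilt for all 7, 100% within 0.05 of a whole number. Symbols matched 31571 genes (98.0%).

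The test was limma 3.58.1 (empirical Bayes with trend, R 4.3.3) on log2(FPKM + 0.5), two-sided, for genes reaching an FPKM of 0.5 in 3 or more libraries, Benjamini-Hochberg adjusted over all 14838, threshold 0.05. This scale understates changes of low genes. edgeR 4.0.16 and DESeq2 1.42.0 on rebuilt reads, other scalings, pseudocounts, filters, weights, a replicate block, members summed with copies and each library left out were alternatives. The set without pseudogenes of the annotation was added after seeing the data. The tests were checked on simulated reads. Copies were aligned with blastn 2.17.0, and 3 rows of 200 gave no alignment or sequence. FPKM of 1 read in 1 kb was 0.0200 to 0.0312. A count of 0 allows up to 3 reads, and this covers counting error only. Correlations of same-numbered deviations were 0.25, 0.10 and -0.15. Differently numbered libraries were not compared, so whether replicate numbers pair the libraries is not known.

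Members named in the text are Rpl21, Rpsa and the stalk, the 8 lower and 8 higher of smallest p, the 5 most abundant, paralogue pairs and the 7 with most pseudogene rows (5, with ties). Every other member named, among them Rps3, Rps6, Rps9, Rps10, Rpl5, Rpl11 and Rpl24 and those listed by place in the subunit, annotation or groups that did not overlap, was added after its values were seen. From the elongation, biogenesis, Myc and mTOR, and p53 lists the 2 genes of smallest p are named. Some genes are not reported here.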

Additional observations from a re-analysis of the deposited data

Results flagged for a closer look

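In 2 of 38 tested sets of 4 control values, 1 control stood far from its 3 fellows, where chance gives about 1 in 20. For Rpsa, control 4 was at 736 FPKM and the other controls between 599 and 614. Its gap to the nearest was 0.885 of the whole control range, past the critical value of Dixon's test at 95%. For Rpl31, control 2 was at 254 FPKM and the others between 181 and 193 (0.831 of the range).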

How the results depend on the processing

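Over 21 settings, 37 named members gave 775 alternative log2 fold changes, of which 743 kept direction and side of the threshold and 5 passed it, all with DESeq2 (Rps14, Rpl13, Rplp1, Rps15 and Rpl21). DESeq2 called 517 genes and 5 members. Members lower at an unadjusted p under 0.05 numbered 19 (10.3% of all genes). They were 11 with TMM (7.37% of all genes), 11 with median-of-ratios scaling (7.29%) and 32 on the TPM scale (19.2%). With array weights they were 10 (9.99%), with edgeR 12 (7.33%) and without mitochondrial reads 12 (7.05%). With 1 library left out they were 9 to 25 (9 without ZQD 1, 8.38% of all genes, 10 without control 4, 7.9%, and 25 without ZQD 3, 9.97%). Members higher at that p numbered 2 (5.21% of all genes), and 1 on the TPM scale. Those with all ZQD above all controls numbered 2 (5.35% of all genes), but 1 on the TPM scale and 2 to 6 with 1 library left out. They were 5 without ZQD 2 (9.51% of all genes), 5 without ZQD 3 (9.59%) and 6 without control 2 (8.4%). Those with all ZQD below numbered 19 to 38 with 1 left out. They were 38 without ZQD 3 (17.2% of all genes), 19 without control 2 (14.1%) and 19 without control 4 (12.4%). The mean read share in ZQD was 3.07%, and 3.42% without mitochondrial reads.

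The median over members ranged from -0.17 to -0.09 with 1 library left out. It was -0.07 with TMM (all genes -0.01) and -0.21 on the TPM scale (all genes -0.13). The sign turned in 27 cases over 10 members, whose log2 fold changes in the main test ran from -0.09 (Rpl31) to 0.11 (Rpl17, SE 0.428). The cause was not tested. Rpl36a was at 0.0031 with DESeq2, 0.0021 with TMM, 0.0022 with edgeR, 0.0029 with median of ratios and 0.013 without mitochondrial reads, and Rps3a1 at 0.0070, 0.0061, 0.0063, 0.0069 and 0.017. Without mitochondrial reads Rps2 was at 0.0059. On the TPM scale Rpl26 was at -0.086, Rpl39 at -0.036, Rpl4 at -0.012 and Rplp2 at -0.040. With 1 library left out Rpl36a ranged from -0.110 to 0.028, Rpl17 from -0.32 to 0.61, Rps2 from -0.10 to 0.0048, Rpl26 from -0.045 to 0.110, Rpl22l1 from -0.173 to 0.030, Rpl39 from -0.057 to 0.163 and Rpl31 from -0.143 to 0.020.

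With the replicate number as a block, 1 gene and 0 members were called, and Rpl17 was at -0.14. At an unadjusted limma p under 0.05, 8 of the 86 members tested were lower (8.03% of all genes) and 1 was higher. Whether the numbers pair the libraries is not known.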
